A study of Mus musculus with 6 samples.

Results

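The 10 genes described here belong to transforming growth factor β (TGF-β) and activin signalling and were measured in mouse CD4 T cells carrying an E47-ER or a control bHLH-ER retrovirus. They were Tgfbr1, Tgfbr2, Smad2, Smad3, Smad4, Smad7, Ski, Skil, Pmepa1 and Inhba. Every probe set whose symbol in the platform annotation was exactly one of these names was taken, which gave 25 probe sets of 45037 that measure no Affymetrix control, and 10 genes of 18193. The rule matches names alone, but the 10 genes were chosen with earlier results of these arrays known.

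TGF-β binds the type II receptor, encoded by Tgfbr2, which then phosphorylates the type I receptor, encoded by Tgfbr1. The type I receptor phosphorylates Smad2 and Smad3, and these join Smad4 and act on genes in the nucleus. Activin A, a dimer of the chain encoded by Inhba, uses receptors of its own and the same Smad2 and Smad3. In CD4 T cells, TGF-β with IL-2 induces Foxp3, the lineage factor of regulatory T (Treg) cells, and Smad3 is among the factors that bind a Foxp3 enhancer.

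The E47 group had 3 samples of C57BL/6 lymph node CD4+CD25- cells transduced with E47-ER, and the control group had 3 such samples transduced with bHLH-ER. E47, a splice form of Tcf3, is a transcription factor of the basic helix-loop-helix (bHLH) type, and ER is the estrogen receptor part that lets tamoxifen bring a fused protein into the nucleus. The content of the bHLH-ER construct is not described in the labels. Both groups were cultured for 2 days on plates coated with 2 µg/ml anti-CD3 and 1 µg/ml anti-CD28. The medium held 200 U/ml IL-2 and 5 ng/ml TGF-β1, and virus was added on day 1. After sorting for CD4 and Thy1.1, both were kept for 6 hours on the same antibodies with IL-2 and 1 µM tamoxifen, and TGF-β1 is not listed for these hours. No sample was kept without tamoxifen or without TGF-β1, so the values compare constructs and not the presence of either agent. Each of 3 experiments gave 1 E47 and 1 control sample, from pools of 3, 3 and 4 mice aged 7, 8 and 9 weeks in experiments 1, 2 and 3.

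Each array had 1 RMA intensity per probe set, and all levels here are its log2. Differences are E47 minus control within the pairs of the same experiment, tested with limma over all 45037 probe sets with the experiment as a block, which is called the paired fit. A change was called at an adjusted p below 0.05. The array medians lay between 34.3 and 35.4 on the linear scale. All 6 CD4 T cell markers were above the array median on every array, and so were the 2 CD8 markers. The same held for 1 B cell marker, 2 myeloid markers and 1 stromal marker. Thy1, of which the sorting marker Thy1.1 is a form, had 12.73, 13.03 and 12.54 in E47 samples, against 12.05, 12.19 and 11.59 in control samples (adjusted p = 0.0498). Whether its probe set reads the sorting marker, the cells' own Thy1 or both was not analysed here. Summed intensities of 6 CD4 T cell markers, with Thy1, were 17049 to 21255 in E47 samples and 12815 to 16607 in control samples. Those of 5 induced Treg markers, with Foxp3, were 4924 to 5802 in E47 samples and 5810 to 6029 in control samples. In both of these sums the groups did not overlap. Summed intensities of the 2 CD8 markers were 189 to 327 in E47 samples and 140 to 209 in control samples, and those of 6 B cell markers were 163 to 195 in E47 samples and 173 to 215 in control samples. Those of 8 myeloid markers were 275 to 350 in E47 samples and 286 to 338 in control samples, and those of 5 stromal markers were 130 to 156 in E47 samples and 142 to 157 in control samples. Both NK markers were on no array above the median, with summed intensities of 20 to 21 in E47 samples and 21 in control samples. RMA gives no value of 0, and the part of these markers in the results was not tested. Foxp3 was above the array median on every array, with 6.36, 7.83 and 6.07 in E47 samples, against 6.42, 8.16 and 6.29 in control samples. In bulk samples such as these, fewer cells of a type and less RNA per cell cannot be told apart.

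Of the 25 probe sets, 1 rose in E47 samples, a Smad3 probe set, and 0 fell. In all, 122 of 45037 probe sets passed, with 0.238% of all probe sets higher and 0.0333% lower. At an unadjusted p under 0.05 in limma, 7 of the 25 were higher and 1 was lower, while 9.06% of all probe sets passed that limit in either direction. The 7 were probe sets of Smad3, Tgfbr2 and Pmepa1, and the 1 was a probe set of Inhba. The groups did not overlap in 7 of the 25 with E47 higher and in 2 with E47 lower, against 4.57% and 6.65% of all probe sets. In 16 of the 25 the mean difference was smaller than 0.2 in size.

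**Figure D1:**
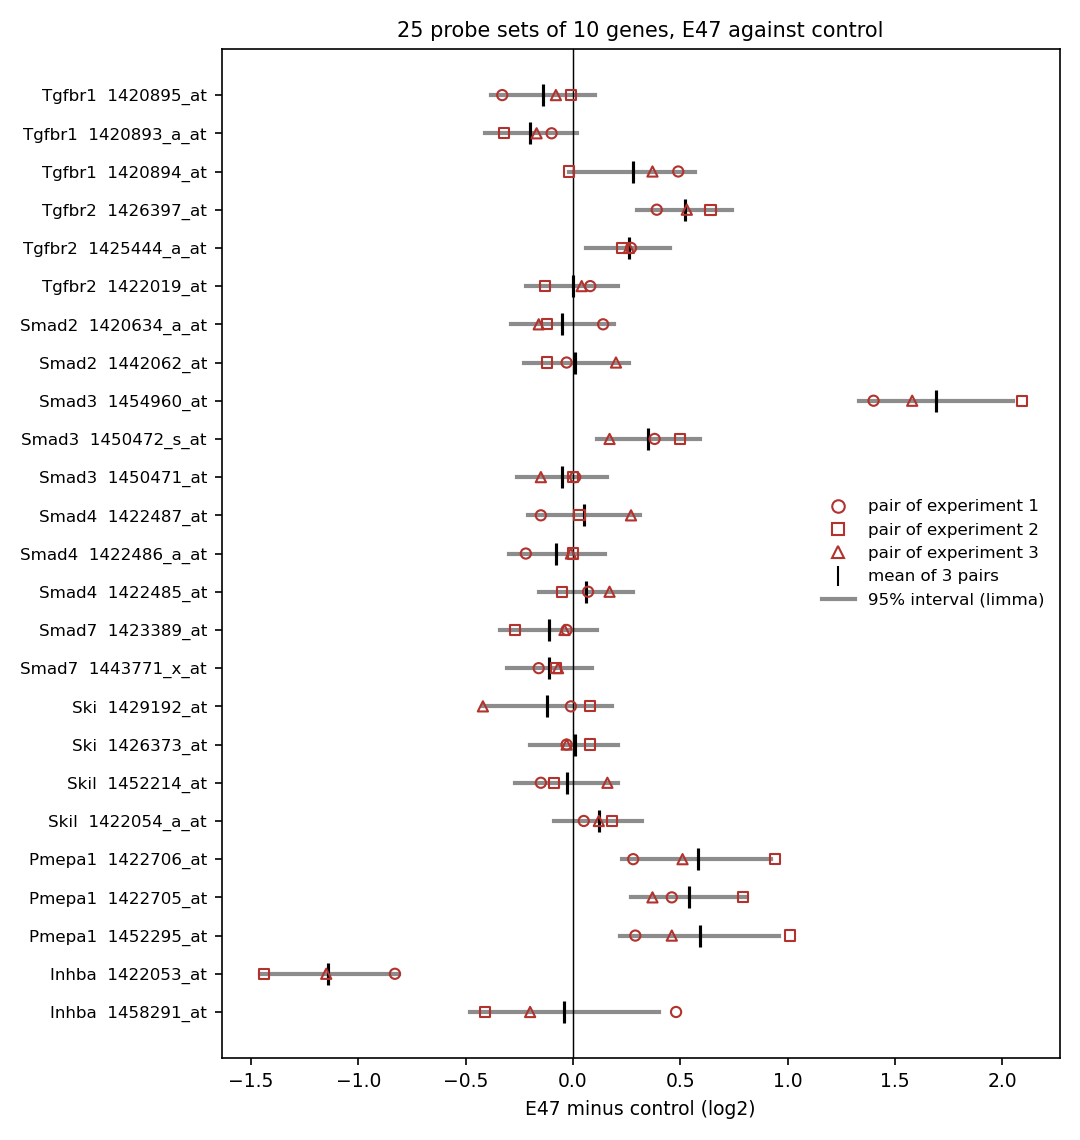
Difference in log2 intensity, E47 minus control, for each of the 25 probe sets of the 10 genes (rows). Open symbols are the pairs of experiments 1, 2 and 3, the black bar is their mean and the grey line the 95% interval from limma. Smad3 1454960_at lies at 1.69, the 3 Pmepa1 probe sets lie at 0.54 to 0.59, Inhba 1422053_at lies at -1.14, and most others lie near 0.

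Smad3 encodes one of the receptor-regulated Smads. Its brightest probe set, 1454960_at, had 8.94, 10.10 and 9.07 in E47 replicates 1 to 3, against 7.55, 8.01 and 7.48 in control replicates 1 to 3. All 3 E47 samples lay above all 3 control samples, and experiment 2 was the highest in both groups. The pair differences were 1.40, 2.09 and 1.58. The mean level was 9.37 ± 0.64 in E47 samples and 7.68 ± 0.29 in control samples (SD, n = 3 each), a 3.23-fold rise with a log2 fold change of 1.69 (95% interval 1.33 to 2.05, adjusted p = 0.0206). The call held without pair 1 (log2 fold change 1.84, adjusted p = 0.00377), with 1 probe set per gene (0.00514) and with an intensity trend (0.00058). The call was lost without pair 2 (log2 fold change 1.49, adjusted p = 0.0656) and without pair 3 (1.75, adjusted p = 0.282). It was also lost without the experiment as a block (adjusted p = 0.210) and with a random block (0.0687).

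The other Smad3 probe sets were dim. Probe set 1450472_s_at had 4.97, 5.16 and 4.72 in E47 samples, against 4.58, 4.66 and 4.55 in control samples. It was above the array median on 1 of 6 arrays. The groups did not overlap, and the log2 fold change was 0.35 (95% interval 0.11 to 0.59, adjusted p = 0.411). Probe set 1450471_at was on no array above the median, with 4.56, 4.65 and 4.75 in E47 samples, against 4.55, 4.65 and 4.90 in control samples. Its groups overlapped, with a log2 fold change of -0.05 (95% interval -0.26 to 0.16). Where the 3 probe sets lie on the Smad3 transcript was not analysed here. Averaged over its probe sets, Smad3 had a log2 fold change of 0.66 and still passed (adjusted p = 0.0236 over genes).

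**Figure D2:**
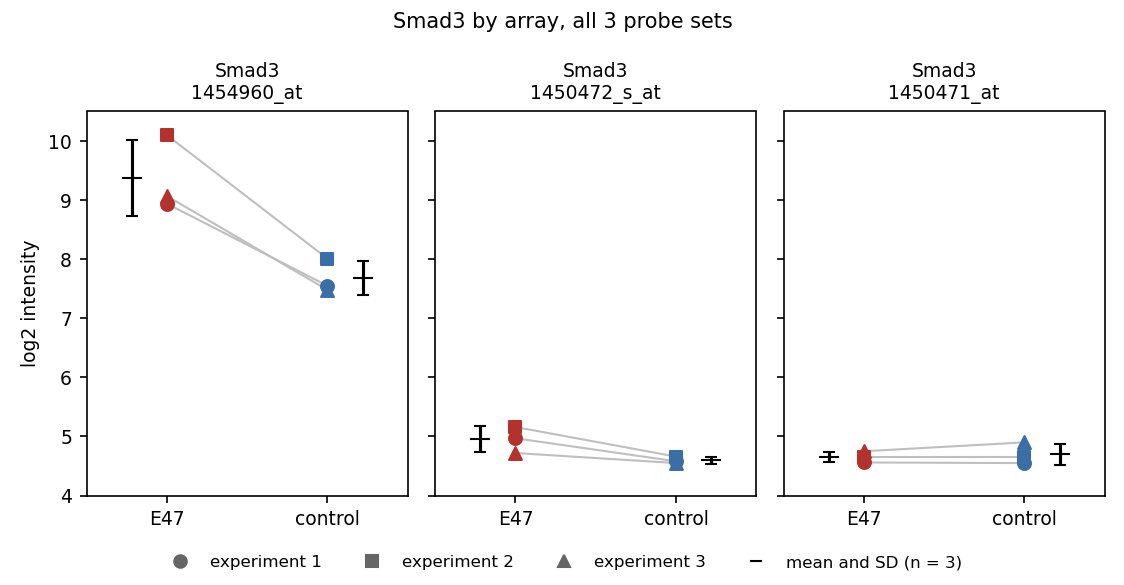
Log2 intensity of the 3 Smad3 probe sets on each array, E47 samples left and control samples right in each panel. Symbols mark the experiments, grey lines join the pair of an experiment, and black bars are the group mean and SD (n = 3). In 1454960_at the E47 samples sit between 8.94 and 10.10 and the control samples between 7.48 and 8.01, while both other probe sets stay at or below 5.16 on every array.

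E47 binds DNA at E-boxes, so the sequences around the start sites of Smad3, Tgfbr2 and Inhba, 3 of the genes with the largest differences, are shown as context. They run from 250 bases before to 50 after the start, on the gene's strand, from RefSeq on GRCm38.p6. The motifs searched on both strands were the E-box CANNTG and the Smad-binding element core CAGAC, whose reverse complement is GTCTG. Capitals mark every match to either, and no match of one overlapped a match of the other. The regions are chr9:63757945-63758244 on the minus strand for Smad3, chr9:116175314-116175613 on the minus strand for Tgfbr2 and chr13:16011601-16011900 on the plus strand for Inhba.
Smad3: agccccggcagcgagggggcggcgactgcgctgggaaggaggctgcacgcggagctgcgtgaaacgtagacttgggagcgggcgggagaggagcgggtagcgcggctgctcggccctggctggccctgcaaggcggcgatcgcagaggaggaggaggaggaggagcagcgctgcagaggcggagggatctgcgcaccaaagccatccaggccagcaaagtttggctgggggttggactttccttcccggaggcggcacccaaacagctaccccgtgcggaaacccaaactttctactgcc
Tgfbr2: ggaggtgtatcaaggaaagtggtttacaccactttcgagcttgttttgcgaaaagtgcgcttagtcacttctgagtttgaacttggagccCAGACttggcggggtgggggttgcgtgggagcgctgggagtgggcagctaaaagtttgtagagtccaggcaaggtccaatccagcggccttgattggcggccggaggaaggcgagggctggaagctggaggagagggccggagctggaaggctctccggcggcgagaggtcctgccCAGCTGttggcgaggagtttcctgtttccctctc
Inhba: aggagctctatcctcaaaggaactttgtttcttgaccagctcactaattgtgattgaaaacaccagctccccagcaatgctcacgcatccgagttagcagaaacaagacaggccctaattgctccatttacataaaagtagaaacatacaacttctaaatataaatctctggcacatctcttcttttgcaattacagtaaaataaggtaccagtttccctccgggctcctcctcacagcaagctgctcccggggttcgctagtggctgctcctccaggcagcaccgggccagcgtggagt
The Smad3 window held 0 matches to CANNTG and 0 to CAGAC, and so did the Inhba window. The Tgfbr2 window held 1 match to each, and its E-box was CAGCTG, which starts at base 17 after the start site. Of 32851 such windows in the table, 72.3% held CANNTG, 16.3% held CAGCTG and 49.6% held CAGAC. Ski and Tgfbr1 were the other genes matched, with 1 window for Ski and 2 for Tgfbr1. The Ski window and 1 Tgfbr1 window held neither motif, and the other Tgfbr1 window held 1 match to each. Smad2, Smad4, Smad7, Skil and Pmepa1 were not matched. A match is not a measured binding site, and windows of this length leave out most regulatory DNA.

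Among the receptors, Tgfbr2 was higher in every E47 sample by its brightest probe set. This probe set, 1426397_at, had 9.99, 10.48 and 10.22 in E47 replicates 1 to 3, against 9.61, 9.83 and 9.69 in control replicates 1 to 3. The groups did not overlap, and the pair differences were 0.39, 0.64 and 0.53. The log2 fold change was 0.52 (1.43-fold, 95% interval 0.30 to 0.74), which did not pass the test over all probe sets (adjusted p = 0.162). Among the alternatives run, it passed only when limma's variance followed the intensity (adjusted p = 0.0101). Averaged over its probe sets, Tgfbr2 differed by 0.26 in log2 (adjusted p = 0.224 over genes). A dimmer probe set, 1425444_a_at, had 6.32, 6.21 and 6.46 in E47 samples, against 6.04, 5.98 and 6.20 in control samples, with pair differences of 0.27, 0.23 and 0.26. Its log2 fold change was 0.26 (adjusted p = 0.456). The last, 1422019_at, lay between 2.72 and 2.86 on all 6 arrays and is among the 5 member probe sets that were on no array above the median.

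Tgfbr1 did not show one direction over its probe sets. The brightest, 1420895_at, had 10.74, 11.10 and 10.70 in E47 samples, against 11.06, 11.12 and 10.79 in control samples. Its groups overlapped, with a log2 fold change of -0.14 (95% interval -0.38 to 0.10, adjusted p = 0.701). The other probe sets were dim, on no array above the median, and pointed opposite ways, at -0.20 for 1420893_a_at and 0.28 for 1420894_at. In 1420893_a_at the groups did not overlap, with 4.67, 4.43 and 4.72 in E47 samples, against 4.77, 4.75 and 4.89 in control samples (adjusted p = 0.588).

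Smad2, the other receptor-regulated Smad of this branch, had 9.01, 9.06 and 9.01 in E47 samples, against 8.87, 9.18 and 9.17 in control samples (1420634_a_at). The groups overlapped, and the log2 fold change was -0.05 (95% interval -0.29 to 0.19, adjusted p = 0.903). Its second probe set, 1442062_at, had a log2 fold change of 0.01 (95% interval -0.23 to 0.26). A change of Smad2 as large as that of Smad3 1454960_at lay outside both intervals.

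Smad4 is the partner shared by all receptor-regulated Smads. The log2 fold changes of its 3 probe sets were 0.05, -0.08 and 0.06, with overlapping groups in each. The brightest, 1422487_at, had 10.33, 10.63 and 10.74 in E47 samples, against 10.48, 10.60 and 10.47 in control samples (95% interval of the difference -0.21 to 0.31, adjusted p = 0.910).

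Smad7, Ski and Skil encode inhibitors of the pathway, and each of their 6 probe sets differed by less than 0.2. Smad7, whose protein blocks the type I receptor and is itself induced by TGF-β, had 8.08, 8.24 and 8.41 in E47 samples, against 8.10, 8.51 and 8.45 in control samples (1423389_at). The groups overlapped, all 3 pairs were slightly lower in E47, and the log2 fold change was -0.11 (95% interval -0.34 to 0.11, adjusted p = 0.743). The second Smad7 probe set, 1443771_x_at, also had -0.11 (adjusted p = 0.726). Its suffix marks probes that may also bind other transcripts.

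Ski and its relative Skil, which encodes SnoN, bind Smads and hold back their target genes. Ski 1429192_at had 9.09, 9.30 and 8.62 in E47 samples, against 9.11, 9.22 and 9.04 in control samples, and E47 replicate 3 was the lowest. Its log2 fold change was -0.12 (95% interval -0.42 to 0.18), and that of Ski 1426373_at was 0.01 (-0.20 to 0.21). Skil 1452214_at had 10.71, 10.87 and 11.05 in E47 samples, against 10.86, 10.96 and 10.89 in control samples. The groups overlapped, with a log2 fold change of -0.03 (95% interval -0.27 to 0.21), and Skil 1422054_a_at had 0.12 (-0.09 to 0.32). The smallest adjusted p among these 4 probe sets was 0.705.

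Pmepa1, a membrane protein induced by TGF-β that sequesters receptor-regulated Smads, was higher in all 3 of its probe sets without passing the test. The brightest, 1422706_at, had 9.72, 10.18 and 9.94 in E47 replicates 1 to 3, against 9.44, 9.24 and 9.43 in control replicates 1 to 3. Probe set 1422705_at had 7.56, 7.76 and 7.55 in E47 samples, against 7.10, 6.97 and 7.18 in control samples. Probe set 1452295_at had 5.20, 5.86 and 5.41 in E47 samples, against 4.91, 4.85 and 4.95 in control samples. In each of the 3 the groups did not overlap and E47 replicate 2 was the highest array, while control replicate 2 was the lowest. The log2 fold changes were 0.58, 0.54 and 0.59, with adjusted p of 0.326, 0.229 and 0.365. Probe sets of 1 gene read the same RNA, so they are not independent measurements of the difference.

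Inhba was lower in E47 samples by its brighter probe set. Probe set 1422053_at had 7.17, 7.47 and 7.33 in E47 replicates 1 to 3, against 8.00, 8.91 and 8.48 in control replicates 1 to 3. The groups did not overlap, and the control samples were more spread than the E47 samples, at 7.33 ± 0.15 in E47 samples and 8.46 ± 0.46 in control samples (SD, n = 3 each). The pair differences were -0.83, -1.44 and -1.15, and the log2 fold change was -1.14 (95% interval -1.46 to -0.81). Over all probe sets the difference just missed the threshold (adjusted p = 0.0537). It passed with 1 probe set per gene (adjusted p = 0.0151 over 18193 genes, of which 1.14% passed), among probe sets above the median (0.0438), with an intensity trend (0.00319) and without pair 1 (0.00809). Without pair 2 and without pair 3 the adjusted p was 0.255 and 0.500, without the block it was 0.268 and with a random block 0.0936. Averaged over its probe sets, Inhba had a log2 fold change of -0.59 and did not pass (adjusted p = 0.157 over genes). The second Inhba probe set, 1458291_at, was on no array above the median and had pair differences of 0.48, -0.41 and -0.20.

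**Figure D3:**
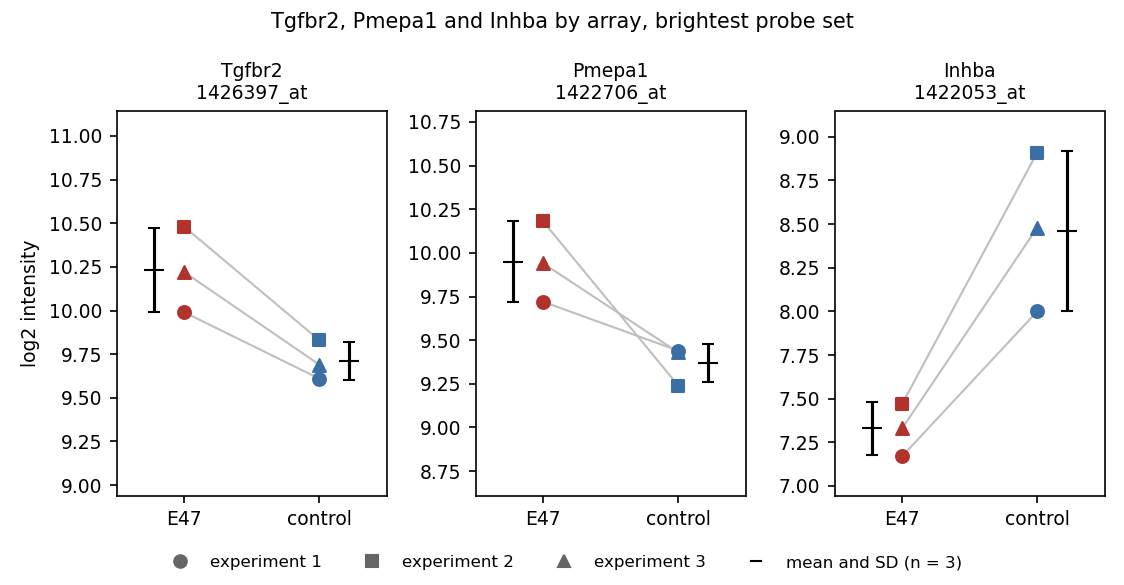
Log2 intensity of the brightest probe sets of Tgfbr2, Pmepa1 and Inhba on each array, E47 samples left and control samples right, with the same height of axis in each panel. Symbols mark the experiments, grey lines join pairs, and black bars are the mean and SD (n = 3). E47 samples lie above all control samples for Tgfbr2 and Pmepa1 and below them for Inhba.

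The difference was most often largest in experiment 2. In 14 of the 25 probe sets the sign was the same in all 3 pairs, as in 31.0% of all probe sets. In 10 of these 14 pair 2 had the largest difference, in 4 it was pair 1 and in 0 pair 3. Over all probe sets, 11.6% had 1 sign in all pairs with pair 2 the largest. The 10 included the brightest probe sets of Smad3, Tgfbr2, Pmepa1 and Inhba, and several of the 10 share a gene. This count was made after the values were seen. With 1 pair per experiment the difference between experiments in the response could not be tested. Over all probe sets the pair differences had an SD of 0.231, 0.298 and 0.296 in experiments 1, 2 and 3.

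The level itself, apart from the construct, was tested between experiments with an F test of the block in the same fit. None of the 25 probe sets passed (0 in limma, 3 at an unadjusted p under 0.05), against 0.604% of all probe sets past the adjusted threshold and 12.7% past the unadjusted one. The 3 were Smad3 1454960_at, Inhba 1422053_at and Smad7 1423389_at, with adjusted p of 0.190, 0.319 and 0.393 from limma. With an intensity trend in this F test 1 of the 25 passed, Smad3 1454960_at (adjusted p = 0.0353). In that setting 1710 of all 45037 probe sets passed, so this call does not set Smad3 apart. Experiment 2 had the highest Smad3 and Inhba levels within each group. Foxp3 differed between experiments in this test (adjusted p = 0.0146), again with experiment 2 the highest in both groups. Il9 also differed in this F test (adjusted p = 0.0096), but with experiment 2 the lowest in both groups. Experiment, mouse age and pool size cannot be told apart.

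Genes whose profile over the 6 arrays was most like that of Smad3 1454960_at were Ooep, Spsb1, Crispld2 and Sytl2. Likeness was the root mean square difference of centred log2 values over 6 arrays. It was ranked among 10859 genes whose mean over the arrays exceeded 5.116, the median over all probe sets. The difference ran from 0.21 for Ooep to 0.25 for Sytl2. The genes were chosen on these same arrays, so the direction and size of their E47 differences follow largely from the choice. Sytl2, a synaptotagmin-like protein of vesicle traffic, had 7.21, 7.70 and 7.30 in E47 samples, against 5.85, 6.14 and 5.39 in control samples, and rose by 1.61 (SE 0.12, adjusted p = 0.0143). Crispld2, a secreted protein, rose by 1.44 in log2 (SE 0.14, adjusted p = 0.0283). Ooep, named for its expression in oocytes, differed by 1.83 (SE 0.25, adjusted p = 0.0886), and Spsb1, a SOCS box protein, had 1.38 (SE 0.16, adjusted p = 0.0507). Ooep had 6.64, 7.75 and 6.40 in E47 samples, against 4.95, 5.16 and 5.20 in control samples. It was near the median in control samples and met the brightness limit mainly through the E47 samples.

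The genes most like Inhba 1422053_at were Nkg7, Adam19, Cxcl2 and Abca1, at differences of 0.25 to 0.27. Their lower levels in E47 samples likewise follow largely from how they were chosen. Adam19, a membrane metalloprotease, had 8.30, 8.54 and 8.47 in E47 samples, against 9.05, 9.36 and 9.27 in control samples, and its level fell by 0.79 (log2, SE 0.08; adjusted p = 0.0345). Nkg7, a cytotoxic granule protein, differed by -0.97 in log2 (adjusted p = 0.0678). Cxcl2, a neutrophil chemokine, had -0.90 (adjusted p = 0.129), and Abca1, a cholesterol exporter, had -0.79 (adjusted p = 0.122).

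The wider pathway was read from 6 lists holding 81 symbols, of which 76 were measured. Each gene was read by its brightest probe set, and 1 of the 76, Smad3, passed over all probe sets. With the test run on 1 probe set per gene, 6 of the 76 passed, against 1.14% of all genes. These were Smad3, Inhba, Bmpr1a, Id1, Il9 and Sphk1. The lists were chosen with earlier results of these arrays known, and they include the 10 genes. Counts from them, here and below, are therefore not a test of the pathway. Over all 18193 genes, read the same way, 0.44% passed over all probe sets, 10.1% had an unadjusted p under 0.05, 57.7% were below 0, 42.3% were above 0, and the median log2 fold change was -0.03.

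Among 12 genes of the TGF-β ligands and their activation, 0 passed in limma, 2 had an unadjusted p under 0.05 (10.1% of all genes), and the median was -0.02. Most of the 12 were dim, on no array above the array median. Tgfb1, which encodes the main TGF-β of T cells, had 7.47, 7.13 and 7.44 in E47 samples, against 7.88, 7.66 and 7.95 in control samples. The groups did not overlap, and the log2 difference was -0.48 (SE 0.08, adjusted p = 0.155, and 0.0552 on 1 probe set per gene). Furin, a protease that cleaves the TGF-β precursor, had -0.26 (adjusted p = 0.470).

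Among 9 genes of activins, inhibin and their antagonists, 0 passed over all probe sets, 3 had an unadjusted p under 0.05 in limma (10.1% of all genes), and the median was -0.19, with 8 of 9 below 0 (57.7% of all genes). Several of those below 0, the gene at the list median among them, were dim and on no array above the array median. Inhbb, which encodes the chain of activin B, had 6.27, 6.22 and 6.18 in E47 samples, against 6.43, 6.63 and 6.64 in control samples. Its groups did not overlap, and the log2 difference was -0.34 (SE 0.10, adjusted p = 0.411). Fstl3, a secreted protein that binds activin, differed by 0.23 in log2 (SE 0.09, adjusted p = 0.527).

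Of 13 receptor genes of the family 0 passed over all probe sets, 5 had an unadjusted p under 0.05 in limma (10.1% of all genes), and the median was -0.14. Bmpr1a, a type I receptor for bone morphogenetic proteins, had 7.86, 7.39 and 7.98 in E47 samples, against 7.23, 6.92 and 7.17 in control samples. The groups did not overlap, and the log2 fold change was 0.64 (SE 0.10, adjusted p = 0.115). It passed on 1 probe set per gene (adjusted p = 0.0387). Tgfbr3, among the 5 with an unadjusted p under 0.05, was higher by 0.36 in log2, with overlapping groups (SE 0.12, adjusted p = 0.475). Acvrl1, a type I receptor best known from endothelial cells, had 5.14, 5.68 and 5.07 in E47 samples, against 5.38, 6.02 and 5.35 in control samples, with overlapping groups (-0.29, adjusted p = 0.415). Of the genes named as activin receptors, Acvr1 had the largest difference, with 7.56, 6.93 and 8.00 in E47 samples, against 7.92, 7.85 and 8.13 in control samples (-0.47, SE 0.16, adjusted p = 0.491). Its groups overlapped, and E47 replicate 2 was the lowest. Acvr1b had -0.09, Acvr2a -0.12 and Acvr2b -0.20, each with overlapping groups, and Acvr1c, on no array above the median, had -0.10 with groups that did not overlap (adjusted p = 0.739).

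Of the 8 Smad genes 1 passed, Smad3, and the median was -0.02. Outside the 4 Smads already given, Smad1 had a log2 fold change of 0.09 (95% interval -0.12 to 0.31), Smad5 had 0.00 (-0.20 to 0.20), Smad9 had -0.07 (-0.32 to 0.19) and Smad6 had -0.32 (-0.65 to 0.01). Smad6 and Smad9 were on no array above the median. Of 21 cofactors and inhibitors of Smads 0 passed in limma, 2 had an unadjusted p under 0.05, Pmepa1 and Ldlrad4, a share near the 10.1% of all genes, and the median was 0.00. Ldlrad4, a relative of Pmepa1 that also sequesters Smads, had 6.21, 6.67 and 6.16 in E47 samples, against 5.90, 6.25 and 5.84 in control samples. It was higher in E47 in each pair, by 0.31, 0.42 and 0.33, but the groups overlapped (adjusted p = 0.307).

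Of 17 measured genes known to respond to TGF-β in some cell type, 0 passed over all probe sets, 7 had an unadjusted p under 0.05 in limma (10.1% of all genes), and the median was -0.11. They did not share a direction, with 6 above 0 and 11 below 0, against 42.3% above and 57.7% below among all genes. The direction in which TGF-β moves each gene was not used, so these counts do not measure pathway activity. Id1, an inhibitor of E proteins, had 9.42, 9.70 and 9.00 in E47 samples, against 8.47, 8.32 and 8.17 in control samples (log2 fold change 1.06, adjusted p = 0.0592, and 0.0170 on 1 probe set per gene). Il9, the interleukin 9 gene, had 9.13, 6.42 and 9.27 in E47 samples, against 10.04, 6.95 and 10.06 in control samples. Each E47 sample lay below the control sample of its experiment, and experiment 2 was the lowest in both groups (log2 fold change -0.74, adjusted p = 0.0871, and 0.0273 on 1 probe set per gene). Sphk1, a sphingosine kinase, differed by -0.56 in log2 (adjusted p = 0.102, and 0.0322 on 1 probe set per gene). Foxp3 had -0.20 (95% interval -0.43 to 0.02, adjusted p = 0.586). Calls on 1 probe set per gene were made with fewer tests, over 18193 genes.

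**Figure D4:**
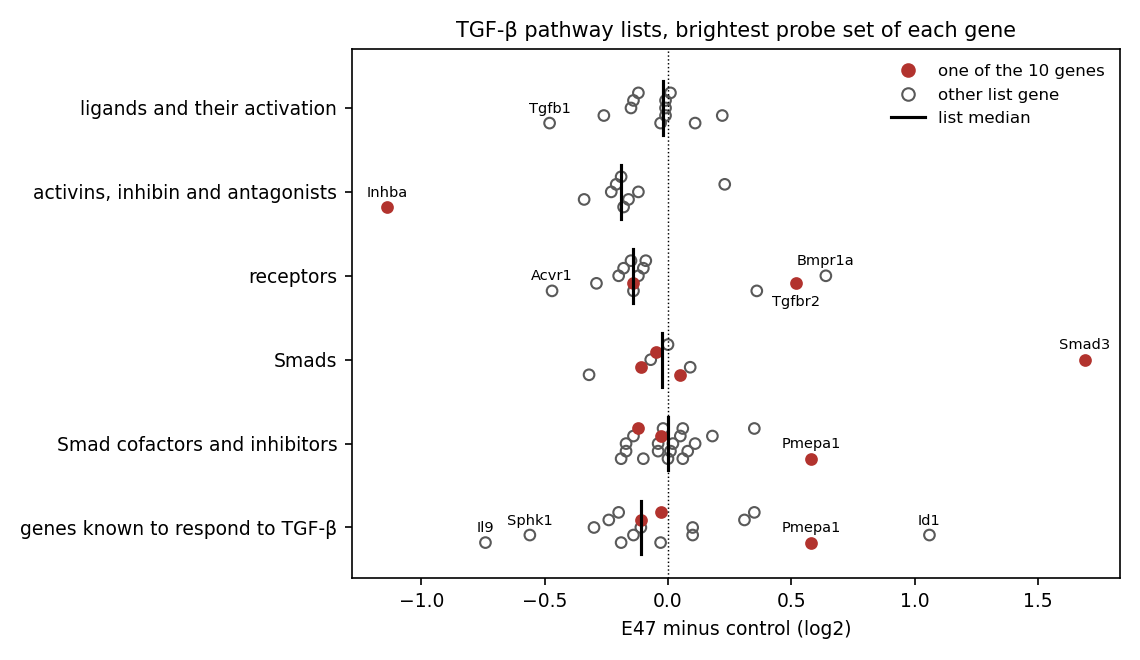
Log2 fold change, E47 minus control, of each gene in 6 lists of the TGF-β family pathway, read by its brightest probe set. Filled points are the 10 genes, open points other list genes, black bars the list medians, and vertical offsets within a list only separate points. Smad3 at 1.69 and Inhba at -1.14 lie farthest from 0, and the list medians lie between -0.19 and 0.00.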

How the data were processed

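RNA of 6 samples was measured on Affymetrix mouse arrays. The deposited values are intensities on a linear scale, 1 for each probe set on each array, made by the authors with RMA (version not stated), as the submitters' processing notes list it. This method subtracts background, gives the single probes of all arrays the same distribution and then combines the probes of a set. Small differences of dim probe sets are therefore compressed. Log2 was taken, 64 control probe sets of 45101 were left out, and 34945 of 45037 probe sets had 1 symbol in the platform annotation. Arrays have no read depth, and 3 per group limit the precision.

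Groups and replicate numbers came from the titles. The test was limma 3.58.1 in R 4.3.3 (lmFit, eBayes, two-sided, Benjamini-Hochberg, 0.05), with the experiment as a block. The design text gives 3 independent experiments of 1 pair each. Deviations from group means correlated at 0.0876, 0.520 and 0.314 in pairs 1 to 3, and at -0.426 to 0.217 across numbers, so the pairing rests on the design text. The code was tested on simulated data. Each gene's brightest probe set had the highest mean log2 value. All probe sets of the 10 genes were named; from each list, beside the 10 genes, up to 4 genes past the threshold and 2 others by lowest p; and the 4 genes most like Smad3 and Inhba, without clone names. Sphk1, Foxp3, Tgfbr3, Acvr1, Acvr1b, Acvr1c, Acvr2a, Acvr2b and the other Smads fall outside this rule and were chosen after their values were seen. Ctgf was read as Ccn2; the other list symbols without a value, Lrrc32, Mstn and Nedd9 among them, were not analysed here. The members and lists were chosen with earlier results of these data known. Alternatives changed the block, the unit of test, the normalization, a filter on dim probe sets, the variance model and the samples.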

Additional observations from a re-analysis of the deposited data

How the results depend on the processing

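The experiment as a block gave 122 called probe sets (107 higher, 15 lower, 1 of the 10 genes' probe sets). Without the replicate block limma gave 52, all 52 higher and 0 lower (1494 lower at an unadjusted p under 0.05), and 0 of the 25 (8 unadjusted). A random block gave 6 lower and 0 of the 25 (8 unadjusted). With 1 probe set per gene there were 208, 66 of them lower, and 2 of the 10 genes, and with the mean over a gene's probe sets 201, 67 of them lower. Among probe sets above the median, 41 were lower, 2 of the 25 passed and 609 differed between experiments, against 272 over all. An intensity trend gave 558 (362 higher, 196 lower, 3 of the 25), and between experiments 1710 with 1 of the 25. Leaving out pairs, or single arrays in the fit without the block, gave 4 to 551 called probe sets (4 to 486 higher, 0 to 65 lower) and 0 to 2 of the 25. The count fell to 34 without pair 2 and 4 without pair 3, and was 551 without pair 1. Settings with fewer samples or fewer tests differ by construction in those numbers, and the cause of the other shifts was not tested.

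The sign turned only in probe sets with differences under 0.2 in size. Under median centring and quantile normalization Tgfbr2 1422019_at had 0.01, under quantile normalization Smad2 1442062_at had -0.01 and Ski 1426373_at -0.02, and over its probe sets Skil had 0.04. With samples left out, the ranges were -0.05 to 0.06 for Tgfbr2 1422019_at, -0.15 to 0.01 for Smad2 1420634_a_at, -0.08 to 0.08 for Smad2 1442062_at, -0.12 to 0.05 for Smad3 1450471_at, -0.06 to 0.17 for Smad4 1422487_at, -0.27 to 0.07 for Ski 1429192_at, -0.09 to 0.08 for Ski 1426373_at, -0.12 to 0.05 for Skil 1452214_at and -0.31 to 0.14 for Inhba 1458291_at. Smad3 1454960_at kept its direction in every setting run, and its adjusted p with samples left out ran from 0.00377 to 0.772. Dim probe sets and 3 pairs limit what could be called.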
